A study of Mus musculus with 12 samples.

Results

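Cajal-Retzius cells are early-born neurons that lie just under the surface of the developing cortex and along the fissure of the hippocampus, and they are known for secreting reelin, the glycoprotein that guides the layering of later-born neurons. Many of them are born in the cortical hem, a signalling strip beside the hippocampal primordium, and others at the septum and at the border of pallium and subpallium. The genes followed here are 6 that these cells are known to express, taken by name from a list, out of 22667 gene IDs in the deposited tables. They are Trp73, a transcription factor of the p53 family; the LIM homeodomain transcription factors Lhx1 and Lhx5; Ebf3, a helix-loop-helix transcription factor of the EBF family; Ndnf, a secreted neurotrophic factor; and Calb2, which encodes the calcium-binding protein calretinin. All 6 were found in the tables and passed the filter on low counts, as did 16111 genes in all. None of them is specific to Cajal-Retzius cells in every brain region, since calretinin, for example, is also made by some interneurons.

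The libraries were of RNA from cortex and from hippocampus of mouse embryos at E18.5, labelled either as wild-type control or as nSR100/Srrm4 knockout (KO). Each of the 4 groups had 2 libraries. Srrm4 is a splicing regulator of neurons. The labels describe a conditional EUCOMM allele kept on C57Bl/6N mice, from which exons 7 and 8 were removed with a CMV-cre transgene, a driver active in most tissues and not limited to neurons. They do not say whether the controls carried the unexcised allele or Cre, whether embryos were pooled, or which libraries came from separate embryos, so p-values reflect only how much these libraries spread, part of which may be technical. Total counts ran from 58210499 to 140052443 per library, and a floor of 3 counts lay between 0.0214 and 0.0515 CPM (a gene's count scaled to the library's total). As a check of the labels, Srrm4 lay at 24.7 ± 0.71 RPKM (reads per kilobase of gene, scaled to the library's total count; mean ± SD, n = 2) in cortex control against 7.55 ± 0.81 in cortex KO, and at 26.9 ± 1.3 in hippocampus control against 5.92 ± 0.34 in hippocampus KO. The mitochondrial share of counts was 4.40% for replicate 1 of the hippocampus KO and 3.14% to 3.44% elsewhere. As a check of the tissues, hippocampus control was set against cortex control (edgeR adjusted p under 0.05). Of 8 listed hippocampal neuron genes, 6 were higher in hippocampus and 1 was lower. Of 10 neocortical projection neuron genes, 7 were lower and 2 were higher. Over all 16111 genes tested, 3066 were higher and 2398 lower. These were bulk samples, in which a difference in the number of Cajal-Retzius cells and a difference in RNA per cell cannot be told apart.

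The sequences around the starts of Trp73, Ebf3 and Lhx1 are shown because these are the members with an entry in the RefSeq promoter table (GRCm38.p6, 250 bases before to 50 bases after a start, all on the minus strand, printed 5′ to 3′ along the gene). Capitals mark matches to the letters searched on both strands. These were the homeodomain core TAATTA and the EBF palindrome (TCCC and GGGA separated by any 2 bases). Also searched were the E-box CANNTG that basic helix-loop-helix factors read, the CCAAT box and the cyclic AMP response half-site TGACGT. Trp73 has a pair of entries; as background, the upstream start gives the full-length forms of p73 and the internal start the shorter forms that lack the transactivation domain, and a count per gene does not separate them.
Trp73, upstream start, chr4:154139826-154140125: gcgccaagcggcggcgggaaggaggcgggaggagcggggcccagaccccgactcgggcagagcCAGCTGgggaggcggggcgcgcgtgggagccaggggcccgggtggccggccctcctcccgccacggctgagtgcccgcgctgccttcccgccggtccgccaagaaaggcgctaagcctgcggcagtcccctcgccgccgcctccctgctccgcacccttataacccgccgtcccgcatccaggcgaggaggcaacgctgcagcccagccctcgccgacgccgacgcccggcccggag
Trp73, internal start, chr4:154097124-154097423: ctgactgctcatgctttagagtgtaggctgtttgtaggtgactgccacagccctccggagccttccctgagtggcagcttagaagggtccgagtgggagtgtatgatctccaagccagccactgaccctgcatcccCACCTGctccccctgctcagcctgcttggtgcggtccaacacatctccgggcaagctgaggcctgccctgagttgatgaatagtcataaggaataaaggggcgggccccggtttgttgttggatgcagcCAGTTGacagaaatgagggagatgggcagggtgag
Ebf3, chr7:137314396-137314695: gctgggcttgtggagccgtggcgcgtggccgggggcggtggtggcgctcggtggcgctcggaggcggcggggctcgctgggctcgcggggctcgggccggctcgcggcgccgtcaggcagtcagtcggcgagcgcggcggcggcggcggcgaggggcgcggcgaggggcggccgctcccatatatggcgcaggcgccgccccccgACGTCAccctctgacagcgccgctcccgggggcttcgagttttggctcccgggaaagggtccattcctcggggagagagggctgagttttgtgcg
Lhx1, chr11:84525485-84525784: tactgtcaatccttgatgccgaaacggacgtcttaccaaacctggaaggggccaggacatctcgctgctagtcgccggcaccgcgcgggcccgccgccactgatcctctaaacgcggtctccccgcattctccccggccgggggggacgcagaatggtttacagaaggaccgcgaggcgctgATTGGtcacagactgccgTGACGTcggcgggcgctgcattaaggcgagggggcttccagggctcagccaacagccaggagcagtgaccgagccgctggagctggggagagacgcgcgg

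The upstream Trp73 window held 1 E-box, at -187 from the start, and the internal one held 2, at -114 and 16 (first base of the match, with the start as 1). Ebf3 held 1 half-site TGACGT at -45 and Lhx1 held 1 at -50, next to a CCAAT box at -68. None of the 4 windows held TAATTA or the EBF palindrome, and no marked matches overlap. Of 32851 promoter windows of this length in the table, 72.3% held CANNTG, 37.4% CCAAT, 7.51% TGACGT, 5.29% TAATTA and 0.904% the EBF palindrome. The GC content was 77.7% for the upstream Trp73 window, 57.7% for the internal one, 77.0% for Ebf3 and 65.7% for Lhx1, against a median of 52.7% over all windows. In GENCODE M21, of the same build, the start of the antisense gene Lhx1os lies in the Lhx1 window. Trp73, Lhx5 and Ebf3 each overlap small annotated genes on the other strand (Trp73os and Gm26036, Gm27199, and Gm45278 and Gm10578). None of these has a row in the tables and the strand setting behind the counts is unstated in the labels, so their reads cannot be told apart from those of the members.

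The first comparison asked where the 6 genes were expressed, by setting hippocampus against cortex in control embryos. All 6 were higher in hippocampus, from 2.39-fold for Ndnf to 5.71-fold for Lhx1, and in every one of them both hippocampus libraries lay above both cortex libraries. In this contrast 19.0% of all genes tested were called higher and 43.1% were higher with no overlap, so a call alone is common here. Called lower were 2398 of the 16111 genes tested. The median log2 fold change was 2.01 over the 6 members and 0.01 over all genes tested. The share of tested genes with a larger fold change than the member was lowest for Lhx1 (1.30%) and highest for Ndnf (5.41%).

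Trp73, on chromosome 4, encodes p73, which Cajal-Retzius cells from the hem and the septum are known to express and to need for survival. It lay at 3.47 and 3.53 RPKM in cortex control (replicates 1 and 2), and at 3.76 and 3.61 in cortex KO. Its level was 16.9 and 15.6 RPKM in hippocampus control, against 19.0 and 18.0 in hippocampus KO. The cortex libraries thus kept within a narrow band, and all 4 hippocampus libraries were well above them. The log2 fold change of hippocampus over cortex was 2.14 (SE 0.08) in controls (edgeR adjusted p = 3.6e-06) and 2.22 (SE 0.09) in KO embryos (edgeR adjusted p = 2.5e-06). These folds rest on 1203 to 2630 counts per cortex library and 5223 to 11643 per hippocampus library.

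Lhx1, on chromosome 11, had the lowest level of the 6 genes and the largest fold between tissues. Its level was 0.60 and 0.54 RPKM in cortex control against 0.70 and 0.59 in cortex KO, on 148 to 390 counts per library, and 3.43 and 3.47 RPKM in hippocampus control against 4.15 and 3.99 in hippocampus KO. In cortex the genotypes overlapped, and in hippocampus both KO libraries were above both controls. The latter held for 15.3% of all genes tested, and the KO effect did not pass. The log2 fold change between tissues was 2.51 (SE 0.13; 95% interval 2.22 to 2.81) in controls (edgeR adjusted p = 8.0e-06) and 2.53 (SE 0.13) in KO (edgeR adjusted p = 7.1e-06). On the log2(RPKM + 1) scale, which understates the change of a low gene, limma gave 1.503 in controls.

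Lhx5, on chromosome 5, is the close relative of Lhx1 and is known to act in the hem and in early Cajal-Retzius cells. It measured 1.86 and 1.59 RPKM in cortex control against 1.98 and 1.89 in cortex KO. The hippocampus values were 7.00 and 6.44 RPKM in control and 8.06 and 7.16 in KO. The KO libraries were higher than the controls in both tissues, by little. So were those of 2.72% of all genes tested, and the KO effect did not pass. Between tissues the log2 fold change was 1.88 (SE 0.13) in controls (edgeR adjusted p = 2.9e-05) and 1.87 (SE 0.13) in KO (edgeR adjusted p = 2.8e-05).

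Ebf3, on chromosome 7, differed less between tissues than Trp73 and the LIM factors. It lay at 1.55 and 1.51 RPKM in cortex control against 1.71 and 1.58 in cortex KO, and at 4.48 and 4.18 in hippocampus control against 5.56 and 5.0 in hippocampus KO. Here too the KO libraries lay above the controls in each tissue, as for 2.72% of all genes tested, and the KO effect did not pass. The log2 fold change between tissues was 1.43 (SE 0.11) in controls (edgeR adjusted p = 4.5e-05) and 1.57 (SE 0.11) in KO (edgeR adjusted p = 2.6e-05).

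Ndnf, on chromosome 6, codes for a secreted protein. Replicate 1 lay above replicate 2 in every group, and in hippocampus its replicates spread more, relative to their mean, than those of the other members: 6.36 and 5.65 RPKM in cortex control against 6.70 and 5.67 in cortex KO, then 17.2 and 12.9 in hippocampus control against 19.4 and 14.4 in hippocampus KO. The genotypes overlapped in both tissues and the tissues did not overlap. The log2 fold change between tissues was 1.25 (SE 0.19; 95% interval 0.81 to 1.70) in controls (edgeR adjusted p = 0.0015) and 1.34 (SE 0.19) in KO (edgeR adjusted p = 0.00099).

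Calb2, on chromosome 8, was the most abundant of the 6 genes per length. Calretinin buffers calcium in Cajal-Retzius cells and in several classes of interneurons. Its level was 17.2 and 17.6 RPKM in cortex control against 19.9 and 16.4 in cortex KO, and 84.1 and 77.6 in hippocampus control against 77.7 and 88.0 in hippocampus KO. The genotypes overlapped in both tissues, with the cortex KO libraries on either side of the controls. Between tissues the log2 fold change was 2.15 (SE 0.12) in controls (edgeR adjusted p = 1.2e-05) and 2.08 (SE 0.12) in KO (edgeR adjusted p = 1.3e-05).

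**Figure D1:**
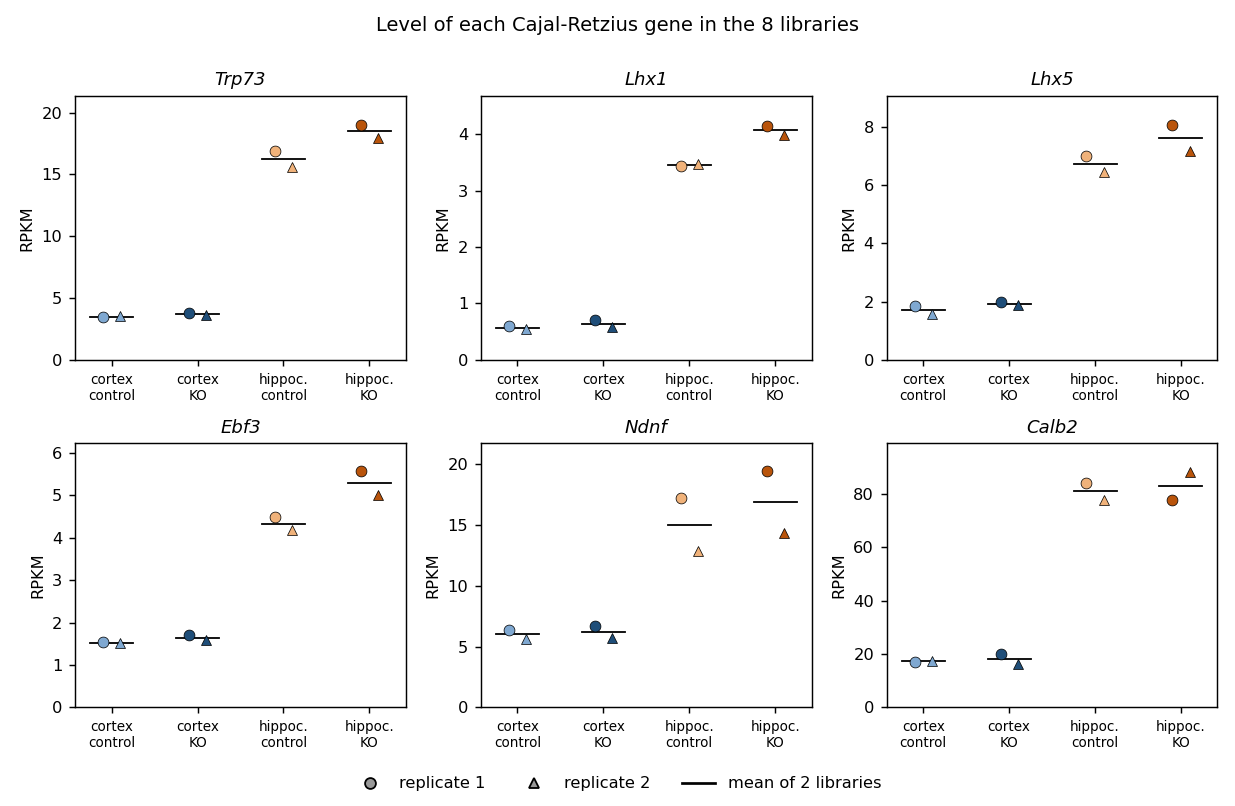
Level of each gene in RPKM (linear axis from 0) in each library, by group; circles are replicate 1, triangles replicate 2 and the bar is the mean of 2 libraries. All 4 hippocampus libraries lie above all 4 cortex libraries in each of the 6 panels.

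The KO embryos gave the tissue difference in a separate set of libraries. All 6 genes were called higher in hippocampus there too, with a median log2 fold change of 1.97 against 0.03 over all genes, where 21.2% of genes were called higher and 45.3% were higher with no overlap. Folds in KO ran from 2.53 for Ndnf to 5.79 for Lhx1. The order of the 6 folds differed between genotypes only in the places of Trp73 and Calb2, whose estimates lay at 2.14 and 2.15 in controls and at 2.22 and 2.08 in KO. No member's tissue difference itself differed between genotypes in the test of the interaction (edgeR adjusted p = 1.00 for each), in which 0% of genes were called by edgeR and none by DESeq2. At an unadjusted p under 0.05 in edgeR there were 158 genes and no member. The interaction estimates lay between -0.07 for Calb2 and 0.14 for Ebf3 on the log2 scale.

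**Figure D2:**
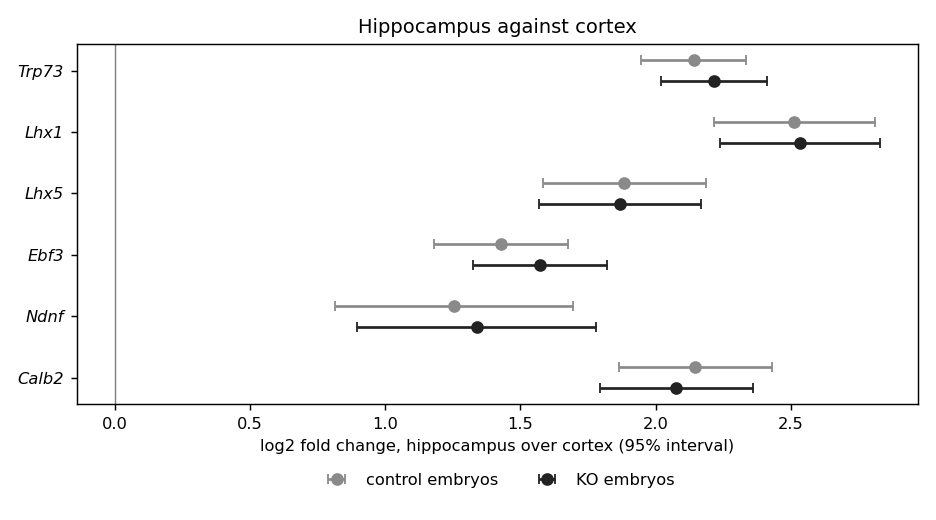
Log2 fold change of hippocampus over cortex for each gene, with its 95% interval from edgeR's quasi-likelihood fit, in control (grey) and KO (black) embryos. Lhx1 lies farthest to the right (2.51 and 2.53) and Ndnf nearest to 0 (1.25 and 1.34), and the intervals of the genotypes overlap for each gene.

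Because the folds were unequal, the members stood in different proportions in the tissues. Set against Trp73 in the same library, Ndnf fell from 1.70 ± 0.13 in cortex to 0.916 ± 0.12 in hippocampus (ratio of RPKM, mean ± SD over the 4 libraries of a tissue) and Ebf3 from 0.442 ± 0.012 to 0.276 ± 0.012. The ratio of Lhx5 fell from 0.509 ± 0.040 to 0.413 ± 0.011, while that of Lhx1 rose from 0.169 ± 0.014 to 0.217 ± 0.009. In these 4 ratios the libraries of the tissues did not overlap, which gives the smallest p that 4 against 4 allows in an exact two-sided permutation test (p = 0.0286, and 0.0357 after Benjamini-Hochberg adjustment over the 5 ratios). Calb2 stood at 4.94 ± 0.31 times Trp73 in cortex and 4.74 ± 0.43 times in hippocampus, and this difference lay within the spread (exact permutation p = 0.571). The 4 libraries of a tissue include both genotypes, and the test takes all 8 libraries as independent; the labels do not say whether a cortex and a hippocampus library came from the same embryo.

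**Figure D3:**
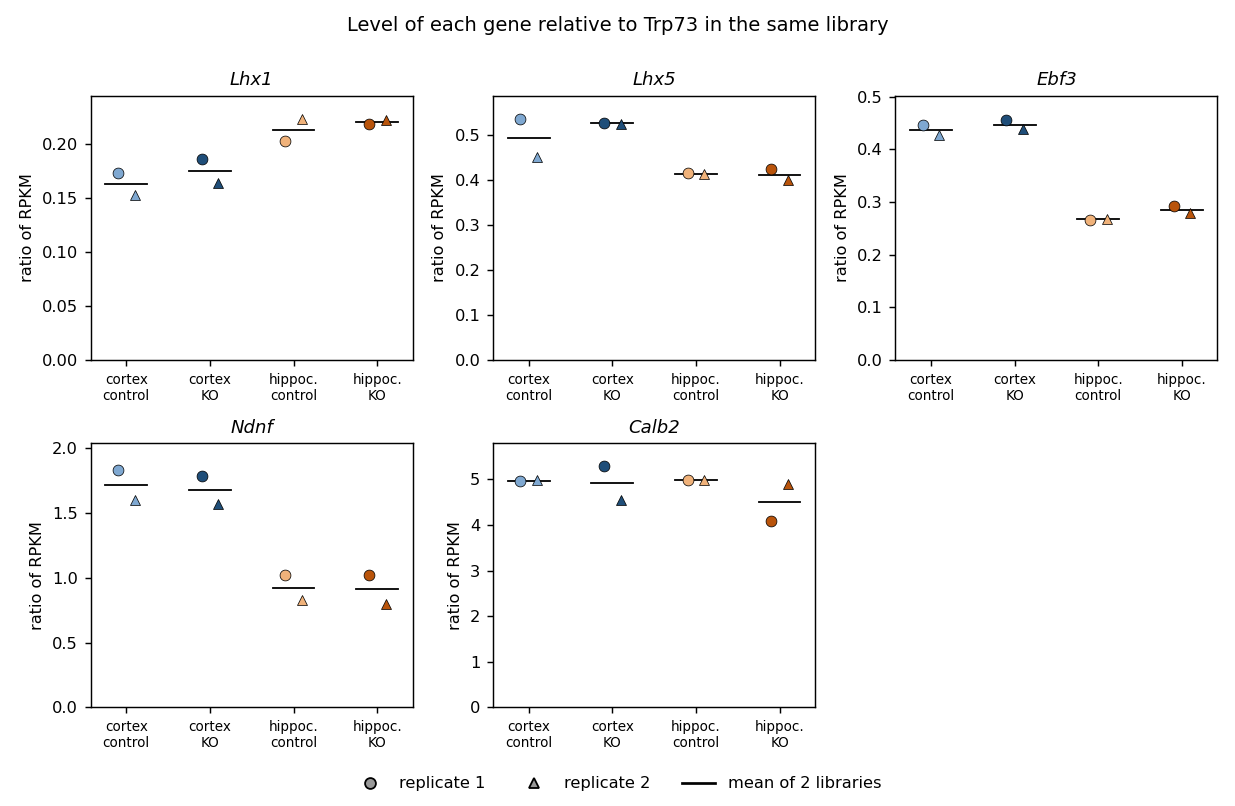
RPKM of each gene divided by the RPKM of Trp73 in the same library (linear axis from 0), by group, with the mean of 2 libraries as a bar. Ndnf, Ebf3 and Lhx5 sit lower relative to Trp73 in hippocampus, Lhx1 sits higher, and Calb2 overlaps between the tissues.

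Per length, the order in both cortex groups was Calb2, Ndnf, Trp73, Lhx5, Ebf3 and Lhx1, with no overlap between neighbours in RPKM. In both hippocampus groups Trp73 and Ndnf overlapped, with means of 16.2 ± 0.94 and 15.04 ± 3.1 RPKM in controls and 18.49 ± 0.73 and 16.9 ± 3.6 in KO. The other neighbours in that order did not overlap. Over the 8 libraries Pearson's r of log2 CPM between members ran from 0.964 (Ndnf and Calb2) to 0.998 (Trp73 and Lhx1), values set by the split between tissues that all of them share. Among 13425 genes with a mean of at least 1 CPM, the closest to Trp73 in this measure were Wnt5a (r = 0.9995), Vim and Ezr. For Lhx1 they were Vim, Lamb2 and Golim4, for Lhx5 Lamb2, Smo and P2rx4, and for Ebf3 Serpinh1, Tpbg and Vim. For Ndnf they were Phgdh, Reln (r = 0.998) and Btd, and for Calb2 Stat3, Bcl2l11 and Hydin.

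Other genes known from Cajal-Retzius cells did not all follow the members. Of 10 listed, 5 were called higher and 3 lower in hippocampus control than in cortex control, and in KO embryos 3 were higher and 3 lower. The median log2 fold change was 0.42 in controls and 0.16 in KO. Reln, which encodes reelin, rose by 1.26 (SE 0.20; edgeR adjusted p = 0.0016), from 41.9 ± 4.6 to 105 ± 17 RPKM in controls. Nhlh2, a helix-loop-helix factor, rose by 2.76 (SE 0.08; edgeR adjusted p = 1.3e-06), from 4.19 ± 0.33 to 29.7 ± 0.36 RPKM. Cxcr4, the chemokine receptor that holds Cajal-Retzius cells under the meninges, rose by 2.01 (SE 0.08; edgeR adjusted p = 3.8e-06). The 3 that fell were Ebf1 (log2 fold change -3.34), Ebf2 (-2.59) and Tbr1 (-1.30), of which Tbr1 is also a factor of deep-layer neocortical neurons. Which cells the reads of these 3 genes came from was not tested. Zic1 and Samsn1 passed in controls (1.32 and 0.67, edgeR adjusted p = 0.0097 and 0.040) and not in KO (0.84 and 0.24, edgeR adjusted p = 0.052 and 0.40), and the difference between genotypes did not pass for any gene.

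Within the gene families of the members, relatives also went either way. Ebf3 (log2 fold change 1.43) was the member of its family that was higher in hippocampus control, while Ebf1 lay at 7.48 ± 0.078 RPKM in cortex control and 0.775 ± 0.035 in hippocampus control, and Ebf4 did not pass (-0.35, edgeR adjusted p = 0.15). Of the 11 tested LIM homeobox genes and cofactors other than Lhx1 and Lhx5, 4 were called higher in hippocampus control and 5 lower. Lmx1a, a factor of the hem, and Lhx9 were higher (5.40 and 3.38), with Lmx1a at 0.075 ± 0.0071 RPKM in cortex control, and Isl1 and the cofactor Ldb2 were lower (-4.06 and -1.79). Ldb1, the general LIM cofactor, did not pass (-0.12, edgeR adjusted p = 0.55).

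Beside Trp73, its relative Trp53 differed by 0.30 (edgeR adjusted p = 0.013) in controls and 0.19 (edgeR adjusted p = 0.069) in KO. Cdkn1a, a p53 target that halts the cell cycle, was lower in hippocampus (-0.77, edgeR adjusted p = 0.0036), and 3 of 8 genes of that list were called higher and 1 lower in controls. Unlike Calb2, the calbindin gene Calb1 was lower in hippocampus control (-1.56, edgeR adjusted p = 5.1e-05), as was Necab1 (-1.63); 2 of 9 tested genes for calcium-binding proteins were higher and 4 lower. In the reelin pathway, Reln and its receptor Lrp8 (0.35, edgeR adjusted p = 0.042) were higher, and the receptor Vldlr (-0.63) and the adaptor Dab1 (-0.47) were lower, of 8 genes tested.

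Genes of the cortical hem were higher in hippocampus, with 7 of 8 called in controls and the same number in KO (medians 2.26 and 2.35). Among them were Wnt5a (2.21, edgeR adjusted p = 3.0e-06), Wnt2b (2.31) and Msx1 (4.71), while Gdf7 did not pass (-0.22). Lists of other tissues moved with the members in the same contrast. Of 8 meningeal genes, 7 were called higher in controls (median 3.01), with summed levels of 12.3 to 14.8 CPM over the cortex libraries and 40.4 to 87.2 over the hippocampus libraries. Choroid plexus genes were called higher in 5 of 8 (median 2.30), with summed levels of 6.36 to 13.2 CPM in cortex and 29.2 to 209 in hippocampus, where control replicate 2 held the highest value. Microglial genes were called higher in 5 of 8 and summed to 44.8 to 56.3 CPM in cortex and 80.0 to 105 in hippocampus. Every gene of these 3 lists had counts in all 8 libraries, and their part in the members' difference was not tested.

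Interneuron genes went the other way: 10 of 12 were called lower in hippocampus control, including Sst (-2.18) and Npy (-2.45), and 1 higher, which was Reln. The same counts held in KO. Over all 16111 genes tested, 2398 were called lower in controls and 3027 in KO. The interneuron list summed to 1263 to 1445 CPM in cortex and 1538 to 1858 in hippocampus, Reln included. Reln alone held 100430 counts in cortex control and 240920 in hippocampus control (2 libraries each). The sum thus does not show the level of the 10 genes that were lower. Calb2 and Ndnf, which some interneurons also express, were higher in hippocampus, while Gad1 (-0.87, edgeR adjusted p = 0.00095) and Gad2 (-1.18, edgeR adjusted p = 8.9e-05) were lower. The part of interneurons in the levels of Calb2 and Ndnf was not tested.

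The second comparison, KO against control, asked whether loss of Srrm4 changed the 6 genes. None passed in cortex, in hippocampus or over both tissues (edgeR adjusted p from 0.992 to 1.00). Few genes passed at all, 0.0186% of those tested in cortex, 0.0248% in hippocampus and 0.0621% over both tissues. DESeq2 also called no member in any of these contrasts. At an unadjusted p under 0.05 there were no members in cortex, 1 in hippocampus (Ebf3) and 2 over both tissues (Ebf3 and Lhx1), beside 183, 614 and 713 genes in all.

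Among values that did not pass, the 6 log2 fold changes were all above 0 in each tissue, though Calb2 in hippocampus was at 0.0037. Their median was 0.10 in cortex and 0.15 in hippocampus, where 49.7% and 48.6% of all genes were above 0. Over both tissues the estimates were 0.12 (SE 0.05; 95% interval -0.0027 to 0.24) for Trp73, 0.20 (SE 0.08; 0.02 to 0.38) for Lhx1 and 0.16 (SE 0.08; -0.03 to 0.34) for Lhx5. They were 0.19 (SE 0.07; 0.02 to 0.35) for Ebf3, 0.09 (SE 0.13; -0.19 to 0.38) for Ndnf and 0.04 (SE 0.08; -0.14 to 0.21) for Calb2. The upper bounds correspond to folds of 1.16 for Calb2 to 1.30 for Lhx1, with 1.18 for Trp73. The intervals are not adjusted for the number of genes. The fit over both tissues takes the 4 KO and 4 control libraries as independent. The labels do not say whether a cortex and a hippocampus library came from the same embryo. If they did, these intervals may be too narrow.

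The libraries of the genotypes did not overlap, with KO higher, for Trp73, Lhx5 and Ebf3 in cortex, where 9.63% of genes did so. In hippocampus this held for Trp73, Lhx1, Lhx5 and Ebf3, where 15.3% of genes did so, and in both tissues at once for Trp73, Lhx5 and Ebf3, beside 2.72% of all genes. The largest hippocampus estimate was that of Ebf3, from 4.33 ± 0.21 to 5.28 ± 0.40 RPKM (log2 fold change 0.25, SE 0.10, unadjusted p = 0.040, edgeR adjusted p = 0.992). Trp73 went from 16.2 ± 0.94 to 18.49 ± 0.73 RPKM in hippocampus (0.16, SE 0.08, edgeR adjusted p = 0.992). Lhx1 stood at 3.45 ± 0.028 against 4.07 ± 0.11 RPKM there (0.21, SE 0.12, edgeR adjusted p = 0.992).

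Compared within a replicate number, KO minus control in log2 CPM was above 0 in all 4 comparisons for the 4 transcription factors and for Ndnf. It was 0.12 and 0.04 in cortex and 0.10 and 0.22 in hippocampus for Trp73 (replicates 1 and 2), and 0.15, 0.07, 0.24 and 0.27 for Ebf3. For Lhx1 it was 0.22, 0.13, 0.21 and 0.21, and for Lhx5 0.10, 0.25, 0.14 and 0.16. Ndnf gave 0.08, 0.01, 0.11 and 0.17, and Calb2 had either sign, with 0.21 and -0.09 in cortex and -0.18 and 0.19 in hippocampus. In each comparison alone, 48.1% and 49.6% of tested genes were above 0 in cortex and 50.8% and 47.9% in hippocampus. The share of genes above 0 in all 4 was not computed. In replicate 2 the genotypes also differed in summed Y-linked genes (144 and 148 CPM in control, 0.319 and 0.412 in KO). The labels do not say that a number marks a shared litter or day.

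Other measures differed between control and KO libraries as well. In replicate 2, summed Y-linked genes stood at 144 and 148 CPM in control (cortex and hippocampus) and at 0.319 and 0.412 in KO. In replicate 1 they stood at 35.3 and 39.6 in control and at 25.4 and 49.8 in KO, with no shared direction. Y-linked level, and with it sex, cannot be told apart from genotype in replicate 2. In hippocampus, 0 of 8 meningeal genes and 1 of 8 choroid plexus genes had a KO estimate above 0 (medians -0.33 and -0.53). There, 10 of 12 interneuron genes had one below 0 (median -0.29). At an unadjusted p under 0.05 in edgeR were 6 interneuron, 2 choroid plexus and 0 meningeal genes, beside 614 of all 16111 genes tested. In cortex, 7 of 8 meningeal and 6 of 8 choroid plexus genes were above 0 (medians 0.28 and 0.25). Microglial genes were above 0 in 7 of 8 cases in each tissue (medians 0.18 in cortex and 0.17 in hippocampus) and in 8 of 8 over both (median 0.13, beside 0.14 for the members). None of these genes was called. Their part in the members' values was not tested. Leaving out 1 library moved several KO estimates of the members by over 1.5 times. Trp73 in hippocampus went to 0.07 without control replicate 2 and to 0.25 without control replicate 1, and Lhx5 there to 0.06 and 0.24. In cortex, Lhx1 went to 0.04 without KO replicate 1 and to 0.30 without KO replicate 2, and Lhx5 to 0.04 without control replicate 2 and to 0.31 without control replicate 1. Trp73 and Ebf3 in cortex both went to 0.03 without KO replicate 1. With replicate 1 of the hippocampus KO left out (mitochondrial share 4.40%), the hippocampus estimates were 0.12 for Trp73, 0.19 for Lhx1, 0.07 for Lhx5, 0.19 for Ebf3, -0.09 for Ndnf and 0.10 for Calb2, and no member was called. Of the other Cajal-Retzius genes, none of 10 was called in any KO contrast. Their KO estimates were above 0 in 7 of 10 in cortex (median 0.08), in 5 of 10 in hippocampus (median 0.0034) and in 5 of 10 over both tissues (median 0.02). Nhlh2 gave 0.22 in hippocampus (29.7 ± 0.36 against 35.3 ± 0.92 RPKM, unadjusted p = 0.017) and Reln 0.10.

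**Figure D4:**
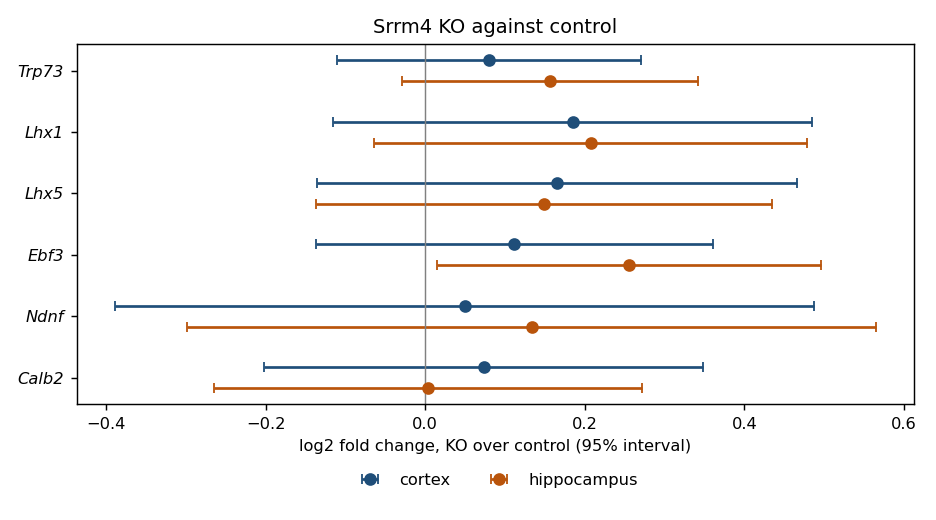
Log2 fold change of KO over control for each gene, with its 95% interval from edgeR's quasi-likelihood fit, in cortex (blue) and in hippocampus (orange). The estimates lie between 0.0037 (Calb2, hippocampus) and 0.25 (Ebf3, hippocampus), and none passed the adjusted threshold of 0.05.

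**Figure D5:**
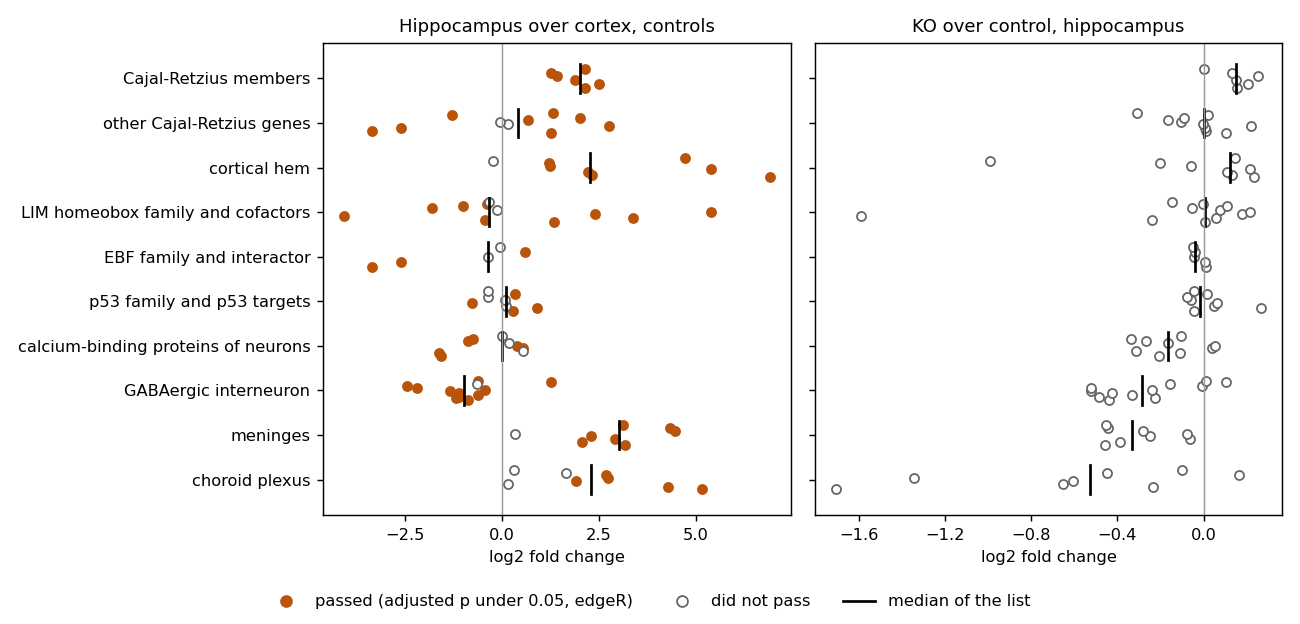
Log2 fold change for each tested gene of the members and of the lists named at the left, for hippocampus over cortex in controls (left) and for KO over control in hippocampus (right, on its own scale); filled points passed edgeR's adjusted p of 0.05, open points did not, and the bar is the list's median. On the left the 6 members all lie to the right of 0 while the other Cajal-Retzius genes fall on both sides, and on the right no point is filled and the members' median is 0.15.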

How the data were processed

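RNA was purified with Tri Reagent and sequenced from Illumina TruSeq libraries, per the labels' protocols. Bowtie (no version) and the build mm9 are named, per the submitters' processing notes. Not given in the sources used here were the rule for counting reads, the strand setting and the gene annotation. Each deposited table held a whole-number read count and an RPKM value per Ensembl gene ID, made by the authors from the reads. The 12 samples reach 8 tables, since runs 1 and 2 of replicate 1 share a table, which was used as 1 library. The RPKM column of each table held 1114 cells with the text "ne", treated as missing, and 4244 to 5054 blank count cells, read as 0. Symbols for 20759 of 22667 IDs came from GENCODE M21 (GRCm38).

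The counts were tested with edgeR 4.0.16 (quasi-likelihood, TMM scaling, R 4.3.3) on 16111 genes that passed filterByExpr (minimum count 10, minimum total count 15), with the 4 group means, or tissue plus genotype for the KO effect over both tissues. All tests were two-sided, with Benjamini-Hochberg adjustment over all tested genes and a threshold of 0.05. Called means past that threshold. The edgeR fit was tested on simulated counts with independent libraries and a fixed spread, so deviations shared by same-numbered libraries were not covered. Ratios and their exact permutation tests used the deposited RPKM (scipy 1.17.1). Alternatives were DESeq2 1.42.0, limma 3.58.1 on log2(RPKM + 1) or log2(RPKM + 0.1), RLE scaling, no filter on low counts, a filter of at least 1 RPKM in 2 libraries, a replicate block, the compared libraries alone, and leaving out each library.

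The members and the gene lists were chosen with earlier results of these data known. Named are the 6 members, Srrm4 as the check of the labels, list genes that passed a test or are among the 3 of their list with the highest mean RPKM, and for each member the 3 genes with the highest r over the 8 libraries. Gdf7 was named after its values were seen.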

Additional observations from a re-analysis of the deposited data

How the results depend on the processing

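All 6 members were called higher in hippocampus in controls and in KO embryos under every alternative run, with the highest edgeR, DESeq2 or limma adjusted p at 0.0152 (Ndnf), and none was called in a KO contrast or the interaction. The counts of all genes called moved more. DESeq2 called 11 in cortex, 18 in hippocampus and 37 over both tissues against 3, 4 and 10 in edgeR. In hippocampus, limma on log2(RPKM + 1), the filter of 1 RPKM and the compared libraries alone gave 2 each, and leaving out single libraries gave 2 to 6; over both tissues this gave 7 to 10 and in cortex 2 to 3. Tissue calls ran from 3231 (without cortex control replicate 1) to 6000 in controls and from 4156 (without cortex KO replicate 1) to 6364 in KO. Estimates that changed sign did not pass either way. Calb2 in hippocampus KO was -0.0020 with DESeq2 and -0.0022 with RLE scaling, and the Lhx5 interaction was 0.048 and 0.015 with limma (pseudocounts 1 and 0.1). Leaving out single libraries, KO estimates for Trp73 ran from 0.03 to 0.12 in cortex and 0.07 to 0.25 in hippocampus, for Lhx1 from 0.04 to 0.30 and 0.19 to 0.23, for Lhx5 from 0.04 to 0.31 and 0.06 to 0.24, and for Ebf3 from 0.03 to 0.18 and 0.18 to 0.34. Those for Ndnf ran from -0.10 to 0.18 in cortex, -0.091 to 0.39 in hippocampus and -0.0071 to 0.19 over both, and for Calb2 from -0.10 to 0.22, -0.10 to 0.10 and -0.034 to 0.089. Interaction estimates ran from -0.0087 to 0.17 for Trp73, -0.093 to 0.17 for Lhx1, -0.16 to 0.11 for Lhx5, -0.14 to 0.34 for Ndnf and -0.21 to 0.10 for Calb2. The cause was not tested.

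Deviations of same-numbered libraries from their group means correlated at 0.119 to 0.662 in 5 of 6 pairs of groups and at 0.0431 between cortex control and hippocampus KO, and summed Y-linked genes in replicate 2 were alike across tissues within a genotype (144 and 148 CPM, 0.319 and 0.412 CPM). Per the labels, replicate 1 of each group had runs 1 and 2, and replicate 2 had no run number. Total counts were 121366651 to 140052443 for replicate 1 and 58210499 to 68649479 for replicate 2. Whether a number also marks a shared litter or day is not given, so the libraries were fitted as independent. With the replicate block, 22 genes and no member were called for the KO over both tissues. The members' edgeR adjusted p there ran from 0.495 (Ebf3) to 0.916 (Calb2). Among the members, Lhx1 in cortex rested on the fewest counts, 148 to 390 per library.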
